A study of Homo sapiens with 2 samples.

Results

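The nuclear-encoded genes of the mitochondrial respiratory chain were followed across a pair of PAR-CLIP libraries, 1 of ZC3H7A and 1 of ZC3H7B. Members were taken by gene symbol: names that begin with NDUFA, NDUFB, NDUFC, NDUFS, NDUFV, UQCR, COX and a digit, SDHAF or ATP5, and SDHA to SDHD, without readthrough, antisense and pseudogene names. This gave 89 of the 10145 genes listed in either library, of which 83 were listed for ZC3H7A, 75 for ZC3H7B and 69 for both. Of the 89 genes, 68 encode subunits, 20 encode assembly factors, and ATP5S, which regulates ATP synthase, was placed in neither class.

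PAR-CLIP records where a protein touches RNA in living cells: 4-thiouridine in the RNA crosslinks to the protein under UV light and is then read as a T-to-C conversion, and overlapping reads are grouped into clusters. Both libraries came from HEK293 cells, a line from human embryonic kidney, in which a Flag/HA-tagged ZC3H7A or a Flag/HA-tagged ZC3H7B was induced with 1 µg/mL doxycycline for 24 h. Cells were given 100 µM 4-thiouridine for 16 h and irradiated at 365 nm, and reads were 50 bases long. The growth protocol also names Flp-In T-REx cells, in which doxycycline switches on a transgene, so both proteins were recorded as tagged, induced copies. The title of the series places these zinc finger proteins in the codon-dependent control of translation and mRNA stability, and the comparison asks which respiratory chain transcripts, and which regions of them, each protein was recovered on. Each protein had a single library and no control library was used here, so no difference between the proteins has a replicate check, and no test, standard error or p-value is given.

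The respiratory chain sits in the inner mitochondrial membrane. Complexes I and II take electrons from NADH and succinate, complex III passes them to cytochrome c, complex IV hands them to oxygen, and complex V, the ATP synthase, uses the proton gradient built by complexes I, III and IV to make ATP. Most subunits are encoded in the nucleus, translated in the cytosol and imported, and they join a small set of subunits made inside the organelle. Assembly factors build the complexes, insert their heme, copper, flavin and iron-sulfur groups, and mostly do not stay in the finished enzyme.

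For ZC3H7A, 8204 genes carried 51808 clusters with 3779662 reads, of which 300342 were distinct. For ZC3H7B, 9159 genes carried 99805 clusters with 2409465 reads, of which 1212989 were distinct. That is 12.6 reads per distinct read for ZC3H7A and 1.99 for ZC3H7B. Ratios are of reads unless distinct reads are named. Because repeated copies make intervals on reads too narrow, the counts of each complex and the calls of single genes are also given on distinct reads where they change. ZC3H7A transcripts had 82704 reads with the ZC3H7A protein and 158 with the other, and ZC3H7B transcripts had 1362 with ZC3H7A and 3768 with ZC3H7B, so each library held more reads on the transcript of its own tagged protein. Of 14 transcripts typical of HEK293 cells, 9 were listed, 7 for ZC3H7A and 9 for ZC3H7B, led by LIN28B with 1521 and 881 reads and SIX4 with 885 and 461, and of 14 markers of other cell types, 0 were listed.

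Respiratory chain transcripts carried more of the ZC3H7A reads than of the ZC3H7B reads. The 83 genes listed for ZC3H7A held 30120 reads in 348 clusters, 0.797% of the reads of that library. The 75 genes listed for ZC3H7B held 9799 reads in 402 clusters, 0.407% of the reads. The reads came from 2369 distinct reads for ZC3H7A and 4910 for ZC3H7B, which is 12.7 and 2.00 reads per distinct read, close to the value over all genes in each library. A listed member had a median of 176 reads, 17 distinct reads and 3 clusters for ZC3H7A, and of 64 reads, 37 distinct reads and 4 clusters for ZC3H7B.

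To compare the libraries gene by gene, the log2 ratio of reads, ZC3H7B over ZC3H7A, was scaled so that the median of the 7168 genes that both tables list, with a minimum of 20 reads in all, was 0. All 69 members listed in both had enough reads. A gene was counted as higher in 1 library when its whole exact 95% interval, which covers counting error only, lay beyond 2-fold from the median gene. The median ratio of the members was -1.09, and 56 of the 69 lay below 0. In the ZC3H7A direction 31 of the 69 members passed, against 18% of all genes compared, and in the ZC3H7B direction 3 passed, against 18.2%. With distinct reads the median was -1.02, with 57 below 0. Then 17 members were higher for ZC3H7A, against 10.1% of all genes, and 0 for ZC3H7B, against 7.28%. Those 17 were all among the 31. Mean reads per cluster gave a smaller difference, with a median of -0.41, 9 members higher for ZC3H7A against 4.65% of all genes and 1, NDUFA4, higher for ZC3H7B against 6.18%. Numbers of clusters gave a median of -0.93, and 0 members passed in either direction, against 0.223% of all genes for ZC3H7A and 0.321% for ZC3H7B. This median is the ratio of any gene with equal numbers of clusters in both libraries, since the unscaled median of all genes was 0.93. Listed members had a median of 3 clusters for ZC3H7A and 4 for ZC3H7B, against 4 and 7 over all genes, so cluster ratios are coarse. PAR-CLIP reads also follow how abundant a transcript is, and the RNA of these cells is not analysed here. Both libraries share the cell line, but whether transcript levels differed between the induced cells was not tested.

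**Figure D1:**
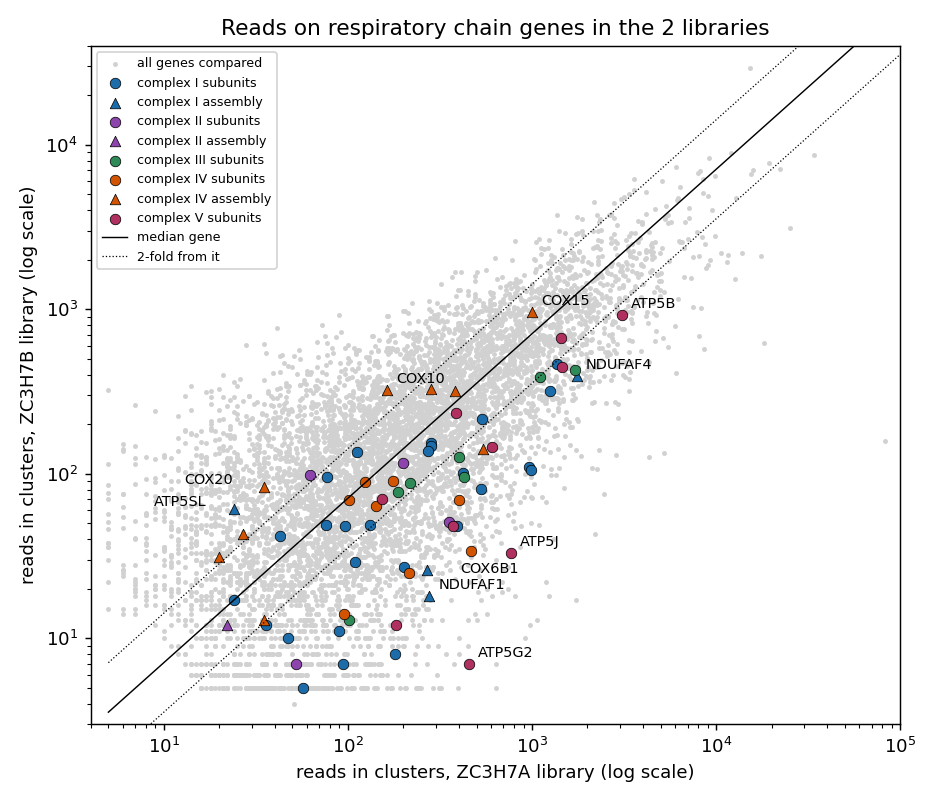
Reads summed over clusters in the ZC3H7A library (horizontal, log scale) and the ZC3H7B library (vertical, log scale), 1 point per gene; grey points are the 7168 genes compared and coloured points the 69 respiratory chain genes among them, circles for subunits and triangles for assembly factors. The solid line is the median gene and the dotted lines lie 2-fold from it. Most subunits lie below the solid line, ATP5G2 farthest. COX10, COX20 and ATP5SL, which passed for ZC3H7B, lie above the upper dotted line, as do COX18, COX19 and the subunit SDHD, which did not pass.

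Subunits and assembly factors had different values. The 55 subunits compared had a median ratio of -1.26, which is 2.39-fold lower for ZC3H7B than the median gene, and 50 of them lay below 0. Of these 55, 27 (49.1%) were higher for ZC3H7A and 0 for ZC3H7B, against 18% and 18.2% of all genes compared. The 14 assembly factors compared had a median of 0.33, with 6 below 0. Of them 4 (28.6%) were higher for ZC3H7A and 3 (21.4%) for ZC3H7B, the latter near the share of all genes. With distinct reads the medians were -1.19 for subunits and 0.05 for assembly factors. Then 15 subunits (27.3%) and 2 assembly factors (14.3%) were higher for ZC3H7A, against 10.1% of all genes. The assembly factors were themselves split by complex: those of complex I had a median of -2.27 over 4 genes and those of complex IV of 0.69 over 9. With distinct reads these medians were -1.71 and 0.29. With numbers of clusters they were -0.80 and -0.34, both below 0.

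All 10 ATP synthase subunits listed in both libraries lay below 0. Their median was -1.41, and -1.21 on distinct reads. Of the 10, 7 (70%) were higher for ZC3H7A on reads, against 18% of all genes compared. On distinct reads 4 (40%) were, against 10.1%, and ATP5B, ATP5C1 and ATP5F1 no longer passed. In the catalytic F1 head, ATP5B, the beta subunit that forms ATP and the member with the most reads, had 3088 reads for ZC3H7A and 918 for ZC3H7B, from 258 and 492 distinct reads. Its ratio was -1.26 (95% interval -1.37 to -1.15), and -1.12 (-1.34 to -0.90) on distinct reads. The alpha subunit ATP5A1 had 1437 and 666 reads, a ratio of -0.62, which did not pass. ATP5C1, the gamma subunit that turns inside the head, had 604 and 146 reads and a ratio of -1.56, or -1.30 on distinct reads. The smallest F1 gene, ATP5E for the epsilon subunit, had 182 and 12 reads and a ratio of -3.43, or -3.06 on distinct reads, so the F1 genes spanned more than 2 log2 units among themselves although their proteins sit in the same particle.

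The peripheral stalk holds the F1 head still against the membrane part. Its subunit ATP5J had 770 reads for ZC3H7A and 33 for ZC3H7B, from 31 and 18 distinct reads, and a ratio of -4.05 (-4.60 to -3.55). On distinct reads the ratio of ATP5J was smaller, -2.84 (-3.76 to -1.96), and still passed. ATP5H had 370 and 48 reads and a ratio of -2.45, or -2.55 on distinct reads. ATP5F1 had 1455 and 448 reads and a ratio of -1.21, or -0.75 (-1.15 to -0.34) on distinct reads. ATP5O, which joins the stalk to the head, had 154 and 70 reads and a ratio of -0.64 that did not pass. Thus 3 of the 4 stalk genes were higher for ZC3H7A on reads, against 18% of all genes compared. On distinct reads 2 were, against 10.1%.

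The c ring, the rotor that protons turn, is made from 3 genes whose mature proteins are the same, and these genes differed. ATP5G2 had 456 reads in 6 clusters for ZC3H7A and 7 reads in 1 cluster for ZC3H7B, from 53 and 3 distinct reads. This was the lowest ratio of all members, -5.53 (-6.86 to -4.48), or 46.3-fold lower than the median gene, and -6.20 on distinct reads. ATP5G3 had 388 and 233 reads, with 40 and 114 distinct reads, and a ratio of -0.24 (-0.48 to -0.00). ATP5G1 had 76 reads in 2 clusters for ZC3H7A and no row for ZC3H7B. The clusters lay mostly in the 3′ UTR for ATP5G3, 7 of 9 and 7 of 11, and for ATP5G2 3 of the 6 ZC3H7A clusters were coding and 2 in the 3′ UTR. The membrane subunits ATP5I and ATP5J2 were listed for ZC3H7A alone, with 46 and 34 reads.

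Complex I, the NADH dehydrogenase and the largest of the complexes, contributed 41 genes. Of its 26 subunits listed in both libraries, 23 lay below 0, with a median of -1.25. Of the 26, 11 (42.3%) were higher for ZC3H7A and 0 for ZC3H7B, against 18% and 18.2% of all genes compared. On distinct reads their median was -1.23 and 7 (26.9%) were higher for ZC3H7A, against 10.1%. The 5 core subunits compared, which carry electrons, had a median of -0.49, and the 21 accessory subunits, which surround them, a median of -1.58. Among the core, NDUFS1, an iron-sulfur subunit, had 272 and 138 reads and a ratio of -0.49, and NDUFV2 had 97 and 48 and a ratio of -0.52. NDUFS8 had 24 and 17 reads, too few to place it on either side. NDUFS3 lay on the other side of the median gene, with 77 and 95 reads and a ratio of 0.80, but on distinct reads its ratio was 0.15, with 8 and 37 distinct reads.

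Among the accessory subunits of complex I, NDUFAB1, the mitochondrial acyl carrier protein, had the most reads, 1363 and 464. Its ratio of -1.06 (-1.22 to -0.91) straddled the 2-fold line. NDUFS5 had 986 and 106 reads and a ratio of -2.72. NDUFB6 had 967 and 110 reads and a ratio of -2.64. Both passed with reads, with distinct reads and with mean reads per cluster, as did NDUFA12, with 393 and 48 reads and a ratio of -2.54. The lowest ratio of the complex was that of NDUFA11, a membrane arm subunit, with 180 and 8 reads, from 18 and 4 distinct reads, and a value of -4.00 (-5.23 to -2.99).

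NDUFC1 had 94 and 7 reads and a ratio of -3.25, but these came from 4 and 6 distinct reads, and on distinct reads the interval ran from -3.55 to 0.80. NDUFA7, NDUFA8, NDUFB4, NDUFB9 and NDUFS6 also passed for ZC3H7A, with ratios from -3.02 for NDUFA7 to -1.58 for NDUFB9. On distinct reads NDUFB4 and NDUFS6 still passed, and NDUFA7, NDUFA8 and NDUFB9, at -3.06, -1.60 and -1.67, did not. NDUFA1, NDUFB2, NDUFB5, NDUFB10, NDUFS4, NDUFA9, NDUFA5 and NDUFV3 lay below 0 without passing, between -1.74 for NDUFA1 and -0.14 for NDUFV3. NDUFA5, at -0.40, turned to 0.19 on distinct reads. Above 0 were NDUFC2, with 112 and 135 reads and a ratio of 0.76, and NDUFB3, with 43 and 42 reads and a ratio of 0.46. On distinct reads NDUFC2 was at 0.41 and NDUFB3 turned to -0.40. NDUFC2 shares its locus with the readthrough gene NDUFC2-KCTD14, which had 175 and 29 reads of its own, and the labels do not state how reads were divided between these names.

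Complex III had 7 genes compared, and all 7 lay below 0, with a median of -1.18, and -1.19 on distinct reads. UQCRB, a small subunit near the quinone site, had 1703 and 427 reads, from 104 and 189 distinct reads, and a ratio of -1.50 (-1.66 to -1.35). UQCRFS1, the Rieske iron-sulfur protein that passes electrons on to cytochrome c1, had 1101 and 388 reads and a ratio of -1.01 (-1.18 to -0.84), which did not pass. UQCRQ had 426 and 96 reads and a ratio of -1.66, and UQCR11 had 402 and 126 and a ratio of -1.18. UQCRB and UQCRQ passed on reads, and so did UQCR10, with 102 and 13 reads and a ratio of -2.48. On distinct reads UQCR10, at -2.93, was the 1 of these 3 that still passed, while UQCRB, at -1.19 (-1.55 to -0.83), and UQCRQ, at -1.48 (-2.05 to -0.90), did not. UQCRC2 and UQCRH, the hinge protein, had ratios of -0.81 and -0.78 and did not pass. UQCRH had 186 and 77 reads, and its near copy UQCRHL had no row in the tables used here.

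In complex II, which also belongs to the citric acid cycle, the catalytic subunits had lower ratios on reads than the membrane subunits. SDHB, the iron-sulfur subunit, had 356 and 51 reads, from 29 and 33 distinct reads, and a ratio of -2.31 (-2.76 to -1.88). SDHA, the flavin subunit, had 52 and 7 reads and a ratio of -2.40. With 3 and 5 distinct reads it did not pass on distinct reads, at -1.32 (-3.68 to 1.37). SDHC and SDHD anchor the enzyme in the membrane. SDHC had 198 and 116 reads and a ratio of -0.28, and SDHD had 62 and 98 and a ratio of 1.15 (0.68 to 1.64), the highest of all subunits. On distinct reads, 7 and 47, SDHD was at 0.69, its interval (-0.46 to 2.08) included 0, and it overlapped that of SDHA. Both SDHC and SDHD had most of their ZC3H7B clusters in the 3′ UTR, 4 of 5 and 6 of 7.

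Cytochrome c oxidase, complex IV, had 8 subunits compared, with a median of -1.35, of which 7 lay below 0. Of the 8, 4 (50%) were higher for ZC3H7A, against 18% of all genes compared. On distinct reads the median was -0.99, and 2 of the 4, COX6B1 and COX4I1, still passed. That is 25% of the 8, against 10.1% of all genes. COX6B1, which faces the intermembrane space, had 466 and 34 reads, from 45 and 17 distinct reads, and a ratio of -3.28 (-3.83 to -2.78). COX4I1 had 214 and 25 reads and a ratio of -2.60, or -2.52 on distinct reads. COX7A2 had 399 and 69 reads and a ratio of -2.04, or -1.27 on distinct reads. COX6C, with 95 and 14 reads and a ratio of -2.27, or -1.69 on distinct reads, was the other subunit that passed on reads. COX5A, COX6A1 and COX7C had ratios from -0.66 for COX7C to -0.07 for COX6A1. NDUFA4, named as a complex I gene but now counted as a complex IV subunit, had 124 and 89 reads and a ratio of 0.01, and -0.60 on distinct reads. It is the 1 member that passed for ZC3H7B on mean reads per cluster, with a ratio of 1.57 (1.16 to 1.98). It had 41.3 reads per cluster in 3 clusters for ZC3H7A and 44.5 in 2 clusters for ZC3H7B. Its paralog NDUFA4L2 had no row in the tables used here.

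Of the 9 assembly factors of complex IV compared, 7 lay above 0 and 2 below, on reads and on distinct reads. COX15, which makes heme A, had 1003 and 959 reads, from 80 and 408 distinct reads, and a ratio of 0.43 (0.30 to 0.56). On distinct reads COX15 was at 0.29, and its interval (-0.05 to 0.66) included 0. COX10, the enzyme of the step before it, which makes heme O, had 163 and 323 reads, from 16 and 174 distinct reads, and a ratio of 1.48 (1.20 to 1.76). COX11, which delivers copper, had 284 and 326 reads and a ratio of 0.69 (0.46 to 0.93). On distinct reads COX11 was at 0.44, and its interval (-0.17 to 1.10) included 0. On reads COX10 passed for ZC3H7B, and COX15 and COX11 did not.

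COX20 and COX18 help to place a mitochondrially made subunit in the membrane. COX20 had 35 and 83 reads and a ratio of 1.74 (1.15 to 2.35), which passed, and COX18 had 27 and 43 reads and a ratio of 1.16, which did not. COX19, a small protein of the copper pathway, had 20 and 31 reads and a ratio of 1.13 (0.27 to 2.01), but 0.01 on distinct reads. The copper chaperone COX17 lay below 0, at -0.94, on 35 and 13 reads. COX16 was the exception in the other direction, with 544 and 141 reads, from 38 and 66 distinct reads, and a ratio of -1.46 (-1.73 to -1.19) that passed for ZC3H7A. On distinct reads COX16, at -1.26 (-1.86 to -0.64), did not pass. COX7A2L, a paralog of COX7A2 that joins complexes III and IV into supercomplexes, had 381 and 318 reads and a ratio of 0.23, against -2.04 for COX7A2. No COX gene passed for ZC3H7B on distinct reads: the intervals ran from 0.65 for COX10 and from 0.11 for COX20 at their lower ends, short of 2-fold.

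Of the 4 assembly factors of complex I compared, 3 were higher for ZC3H7A and 1 for ZC3H7B on reads. Over all genes compared the shares were 18% and 18.2%. Of the 8 listed in either library, 1 was listed for ZC3H7A alone, near the 9.72% of all genes. For ZC3H7B alone 3 of the 8 were listed, against 19.1%, and these had 5 to 32 reads each. NDUFAF4, the assembly factor with the most reads for ZC3H7A, had 1756 and 394 reads, from 106 and 224 distinct reads, and a ratio of -1.66 (-1.82 to -1.50). NDUFAF1, which works on the membrane arm, had 277 and 18 reads and a ratio of -3.45 (-4.23 to -2.76). NDUFAF2, which acts late in assembly, had 270 and 26 reads and a ratio of -2.88. NDUFAF1 and NDUFAF2 also passed on distinct reads, and NDUFAF4, at -0.98, did not. ATP5SL, named after ATP synthase but an assembly factor of complex I with the current symbol DMAC2, had 24 and 61 reads and a ratio of 1.84 (1.14 to 2.58), the highest of all members. On distinct reads, of which it had 3 and 39, ATP5SL was at 1.64 and did not pass. SDHAF2, which attaches the flavin of complex II, had 22 and 12 reads and a ratio of -0.38, and was the 1 assembly factor of that complex listed in both libraries.

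**Figure D2:**
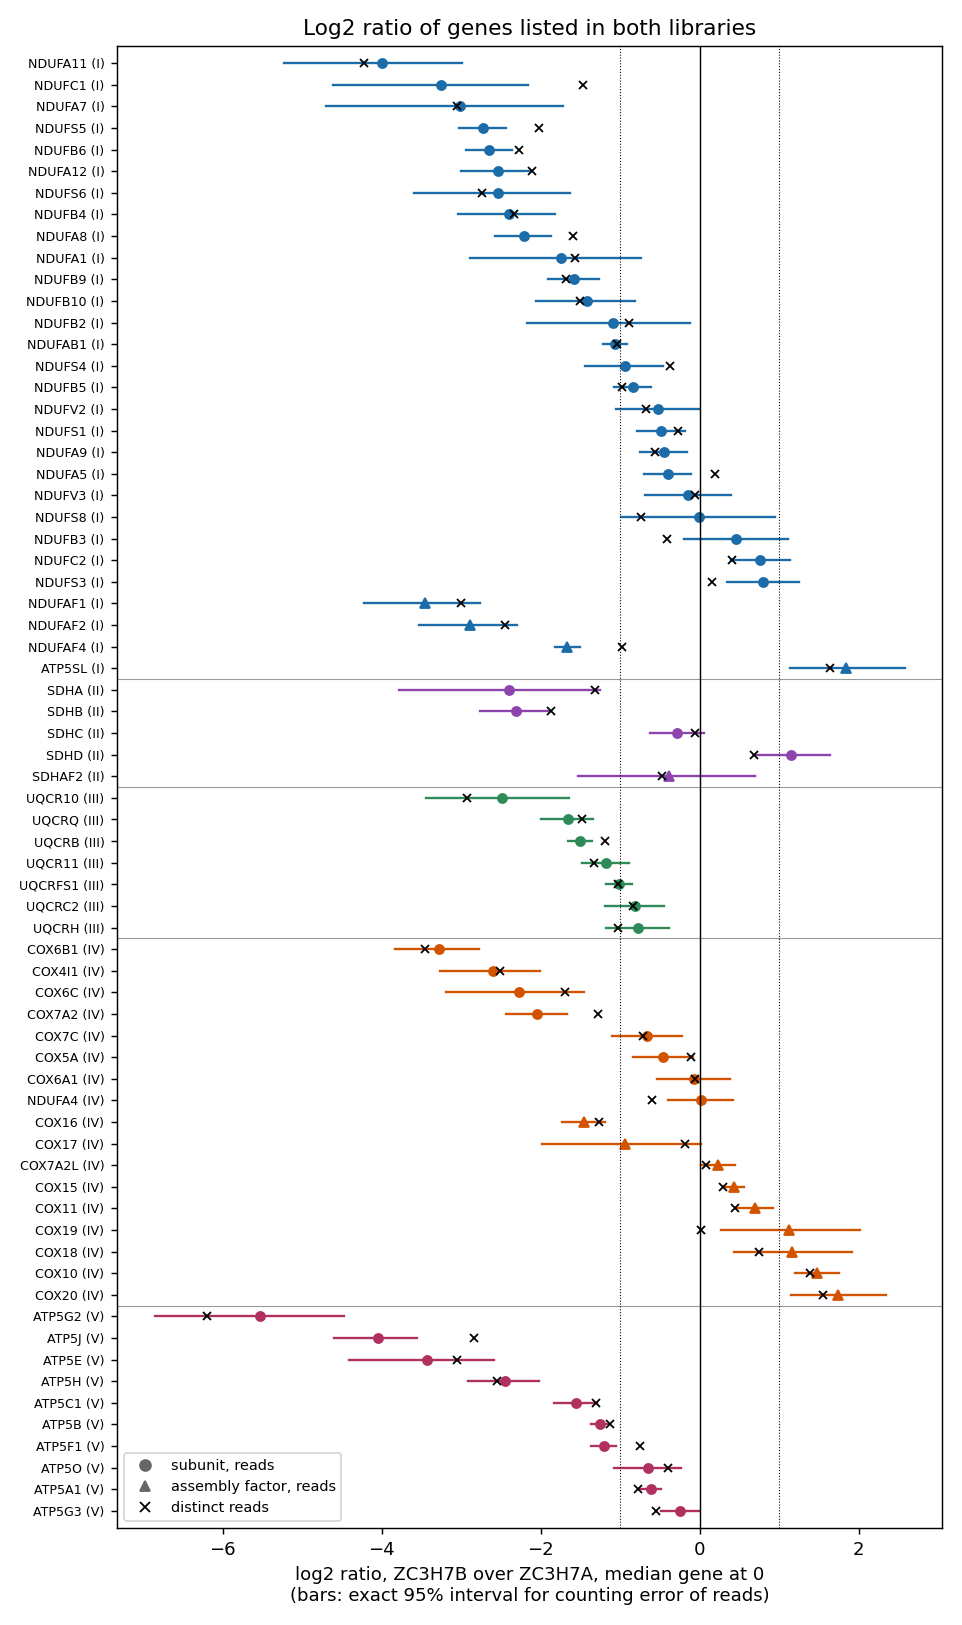
Log2 ratio of reads, ZC3H7B over ZC3H7A with the median gene at 0, for 68 of the 69 respiratory chain genes listed in both libraries, grouped by complex; bars are exact 95% intervals for counting error of reads, crosses the ratio of distinct reads and dotted lines 2-fold. Subunits (circles) lie mostly left of 0, down to -5.53 for ATP5G2, and assembly factors of complex IV (orange triangles) mostly right of it, up to 1.74 for COX20.

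More members were listed for ZC3H7A alone than for ZC3H7B alone, the reverse of all genes. A gene is listed when it has a called cluster, so a missing row is not a count of 0. Of the 89 members, 14 (15.7%) were listed for ZC3H7A alone, against 9.72% of all genes, and 6 (6.74%) for ZC3H7B alone, against 19.1%. For ZC3H7A alone the most reads were on SDHAF1, which protects the iron-sulfur subunit of complex II, with 204 reads from 20 distinct reads in 4 clusters. It was followed by COX8A with 139, COX5B and UQCRC1 with 114 each, and NDUFB7 with 110. The other 9 were NDUFB1, NDUFA2, ATP5G1, COX14, NDUFV1, ATP5I, NDUFS7, ATP5J2 and NDUFAF3, with 31 to 83 reads. NDUFV1, which accepts electrons from NADH, had 53 reads in 3 clusters.

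For ZC3H7B alone all 6 had few reads. NDUFA10 had 37 reads in 3 clusters, 2 of them in introns. NDUFAF7, a methyltransferase, had 32 reads in 4 clusters. ATP5S had 15 reads, NDUFAF5 had 10, and NDUFAF6 and NDUFB8 had 5 each. Of the genes listed for ZC3H7B alone, NDUFAF5, NDUFAF6 and NDUFAF7 are assembly factors of complex I.

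The clusters of these genes lay more in coding sequence, and less in the 3′ UTR, than clusters of all genes. For ZC3H7A 56.6% of the 348 member clusters were coding (exact 95% interval 51.2% to 61.9%), against 42.7% of all gene clusters, and 23.3% (18.9% to 28.1%) lay in the 3′ UTR, against 39.8%. For ZC3H7B 39.8% of the 402 member clusters were coding (35.0% to 44.8%), against 29.6%, and 40.0% (35.2% to 45.0%) lay in the 3′ UTR, against 55.8%. Lengths of coding sequence and UTR were not used, so how much of each difference follows from transcript shape was not tested. At least 1 coding cluster was present on 75 of the 83 genes listed for ZC3H7A, or 90.4% against 70.0% of all genes, and on 58 of the 75 listed for ZC3H7B, or 77.3% against 66.0%.

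Subunits and assembly factors differed in this as well. Coding clusters made up 59.4% of the 271 subunit clusters for ZC3H7A and 46.4% of 278 for ZC3H7B. For assembly factors they made up 46.8% of 77 and 24.6% of 122. The 3′ UTR held 18.5% and 32.7% of subunit clusters and 40.3% and 56.6% of assembly factor clusters. ATP5B had 12 of 17 clusters in coding sequence for ZC3H7A and 15 of 20 for ZC3H7B, and ATP5A1 10 of 14 and 12 of 15. COX15 had 8 of 18 clusters in the 3′ UTR for ZC3H7A and 17 of 24 for ZC3H7B, and COX10 3 of 4 and 10 of 14. F1 genes as a group were mainly coding in both libraries, 69.0% of 42 clusters and 70.5% of 44, while the complex IV assembly factors were 36.5% and 18.6% coding.

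**Figure D3:**
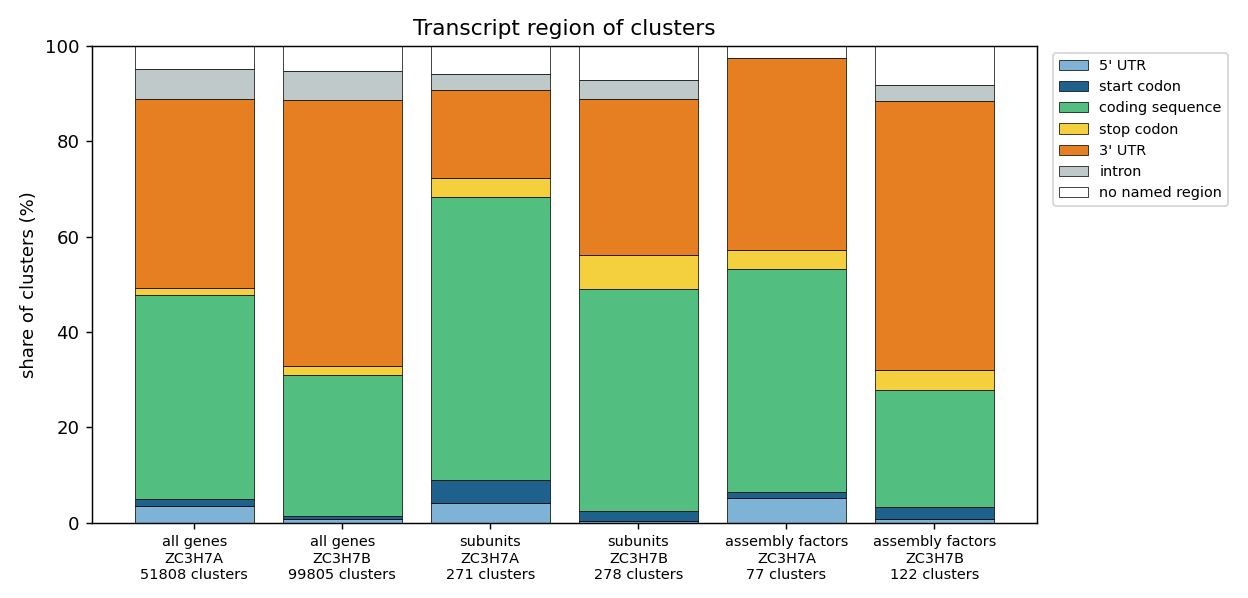
Share of clusters (vertical, %) by transcript region for all genes, subunits and assembly factors, 1 stacked bar per library with its number of clusters. Subunits had the largest coding share in both libraries, 59.4% for ZC3H7A and 46.4% for ZC3H7B, and in each of the 3 sets the ZC3H7B bar holds more 3′ UTR and less coding sequence than the ZC3H7A bar.

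Clusters at the ends of the coding sequence were a larger share than over all genes. Start codons held 14 of the ZC3H7A clusters (4.02%, against 1.43% of all gene clusters) and 9 of the ZC3H7B clusters (2.24%, against 0.645%). Stop codons held 14 clusters for ZC3H7A (4.02%, against 1.46%) and 25 for ZC3H7B (6.22%, against 1.85%). The 25 stop codon clusters for ZC3H7B were spread over subunits and assembly factors, among them 2 each on NDUFS4, COX11 and COX15. The 5′ UTR held 15 clusters for ZC3H7A (4.31%, against 3.61%), among them 2 each on NDUFA2 and UQCRQ, and 2 for ZC3H7B (0.498%, against 0.772%), on ATP5F1 and COX7A2L. Introns held 2.59% and 3.73% of member clusters, against 6.18% and 6.13%.

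Within the same transcripts, the libraries differed in the direction seen over all genes. Among the 37 members with at least 3 clusters in both libraries, the coding share was higher for ZC3H7A in 26, higher for ZC3H7B in 7 and equal in 4. ZC3H7B minus ZC3H7A, the coding share had a median difference of -10.7 percentage points, and one of -10.0 points over the 4517 such genes of the whole table. The 3′ UTR share was higher for ZC3H7B in 23 members, higher for ZC3H7A in 5 and equal in 9, with a median difference of 8.33 points against 11.1 over all such genes. Of the 30 subunits among them, the 3′ UTR share was higher for ZC3H7B in 20 and for ZC3H7A in 2. Of the 7 assembly factors it was higher for ZC3H7B in 3 and for ZC3H7A in 3. The assembly factor NDUFAF4 had more 3′ UTR for ZC3H7B. Of its 9 ZC3H7A clusters 4 were coding and 3 in the 3′ UTR, and of its 16 ZC3H7B clusters 3 were coding and 12 in the 3′ UTR. UQCRB was similar, with 2 of 7 clusters in the 3′ UTR for ZC3H7A and 8 of 14 for ZC3H7B. ATP5A1 had 0 clusters in the 3′ UTR in either library.

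Where the clusters of a gene lay went along with its ratio. The 34 members compared that had most of their clusters in coding sequence had a median ratio of -1.51, with 18 higher for ZC3H7A and 0 for ZC3H7B. Among all mainly coding genes 26.7% were higher for ZC3H7A and 9.78% for ZC3H7B. The 14 with most clusters in the 3′ UTR had a median of 0.05, with 1 higher for ZC3H7A, NDUFAF4, and 2 higher for ZC3H7B, COX10 and COX20. Among all mainly 3′ UTR genes 8.76% were higher for ZC3H7A and 28.2% for ZC3H7B. The other 21 members had a median of -1.48, with 12 higher for ZC3H7A and 1 for ZC3H7B, against 23.8% and 11.1% of all such genes. On distinct reads 11 of the mainly coding members, 0 of the mainly 3′ UTR members and 6 of the others were higher for ZC3H7A. Over all genes of these classes the shares were 15.8%, 4.47% and 269 of 2045. At 4.47%, 0 of 14 does not set the mainly 3′ UTR members apart. All genes of the table showed the same order, with medians of -0.51 for 1994 mainly coding genes, 0.55 for 3129 mainly 3′ UTR genes and -0.39 for the other 2045. On reads and on distinct reads the median of the members lay below that of all genes in each of the 3 classes. On mean reads per cluster the mainly 3′ UTR members lay above, at 0.41 against 0.23.

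The split between subunits and assembly factors did not follow this line throughout. Of the 14 assembly factors compared, 7 had most clusters in the 3′ UTR, and their median ratio was 0.43. The 4 that were mainly coding had a median of -2.17, below that of the 30 mainly coding subunits at -1.49. The 7 subunits with most clusters in the 3′ UTR had a median of -0.24. With neither region in the majority, the 3 assembly factors had a median of 1.13, above the mainly 3′ UTR ones, and the 18 subunits one of -1.58. SDHD, NDUFC2 and ATP5G3 were among those 7, with ratios of 1.15, 0.76 and -0.24. Over the 69 members the 3′ UTR share of the clusters of both libraries and the ratio had a Pearson correlation of 0.51 and a Spearman correlation of 0.53, and over the 7168 genes 0.35 and 0.36. These correlations describe genes of the same pair of libraries, and both measures draw on the same clusters.

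**Figure D4:**
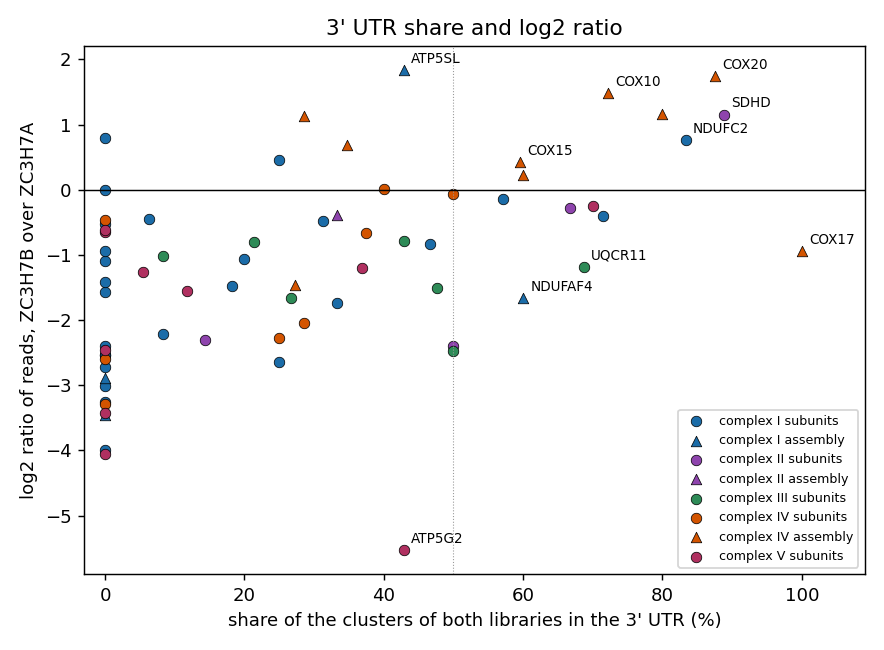
Share of the clusters of both libraries that lay in the 3′ UTR (horizontal, %) and log2 ratio of reads, ZC3H7B over ZC3H7A with the median gene at 0 (vertical), for the 69 genes listed in both libraries; colours are complexes, circles subunits and triangles assembly factors. Genes right of the dotted line at 50% had a median ratio of 0.05 over 14 genes, and NDUFA11, ATP5J and ATP5E, 3 of the lowest ratios, lie at a share of 0, while ATP5G2, the lowest, does not.

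The share of T-to-C reads, the mark of a crosslink, was like that of all genes. Weighted by reads it was 91.1% on member clusters for ZC3H7A, against 92.0% over all genes, and 89.4% for ZC3H7B, against 89.2%. The lowest mean share of a member was 75.6%, on NDUFB4 for ZC3H7A, and 66.7%, on ATP5E for ZC3H7B, which rests on 1 cluster of 12 reads.

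Other genes of the chain and of the mitochondrion were taken from lists by function. Of 10 respiratory genes that the naming rule leaves out, 8 were compared, with a median of -0.46. On reads 3 (37.5%) were higher for ZC3H7A and 0 for ZC3H7B, against 18% and 18.2% of all genes compared. On distinct reads 2 (25%) and 0 were, against 10.1% and 7.28%. The 3 on reads were CYC1, CYCS and C14orf2. CYC1, the cytochrome c1 subunit of complex III, had 155 and 11 reads and a ratio of -3.32. CYCS, cytochrome c itself, had 984 and 146 reads and a ratio of -2.26. The ATP synthase subunit gene C14orf2 had 901 and 135 reads and a ratio of -2.25. On distinct reads CYC1 and C14orf2 still passed, and CYCS, at -1.35 (-1.85 to -0.83), did not. ETFA, which feeds electrons from fatty acid oxidation, had 872 and 275 reads and a ratio of -1.17. Of 37 further assembly and biogenesis factors, 28 were listed and 23 compared, with a median of -0.16. On reads 4 of the 23 were higher for ZC3H7A, near the 18% of all genes compared. For ZC3H7B 2 of the 23 were higher, against 18.2%. On distinct reads 3 were higher for ZC3H7A and 0 for ZC3H7B, against 10.1% and 7.28%. SLIRP, with 982 and 95 reads, had a ratio of -2.88. LRPPRC, its partner in keeping mitochondrial mRNAs stable, had 145 and 313 reads and a ratio of 1.60, so this pair lay on opposite sides. On distinct reads SLIRP, at -2.59, still passed and LRPPRC, at 1.67 (0.86 to 2.61), did not. ATPAF1, an assembly factor of the F1 head, had 727 and 431 reads and a ratio of -0.26. All 13 protein genes of the mitochondrial genome were without a row in both tables under the names searched.

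The remaining lists gave the setting for these values. Their counts on reads stand beside 18% of all genes compared higher for ZC3H7A and 18.2% higher for ZC3H7B. The 18 genes of mitochondrial gene expression compared had a median of -1.04, with 5 (27.8%) higher for ZC3H7A and 1 (5.56%) for ZC3H7B. TFAM, the mitochondrial DNA packaging and transcription factor, had 5028 and 1482 reads and a ratio of -1.27. On distinct reads TFAM, at -0.99 (-1.17 to -0.80), did not pass. MTERF, another factor for mitochondrial transcription, had 1012 and 299 reads and also a ratio of -1.27. The 20 protein import genes had a median of -0.71, with 4 (20%) and 1 (5%), the first near the share of all genes. TOMM20, an import receptor, had 1920 and 1745 reads and a ratio of 0.35, and HSPA9, the chaperone of the import motor, had 2379 and 1238 reads and a ratio of -0.45. The 12 citric acid cycle genes had a median of -0.44, with 1 (8.33%) higher for ZC3H7A and 2 (16.7%), CS and IDH3A, higher for ZC3H7B. On distinct reads CS still passed and IDH3A, at 2.23 (0.82 to 4.14), did not. In that list DLD had 1385 and 717 reads and a ratio of -0.46, and PDHB had 826 and 324 reads and a ratio of -0.86. The 8 regulators of respiratory genes compared had a median of 0.15, with 0 and 1, and SP1, a general transcription factor, had 15405 and 6663 reads and a ratio of -0.72. YY1, another of these transcription factors, had 1694 and 2105 reads and a ratio of 0.81. On distinct reads the genes higher for ZC3H7A numbered 2 (11.1%) for mitochondrial gene expression and 4 (20%) for import. There were 0 for the citric acid cycle and for the regulators, and over all genes compared the share was 10.1%. On reads the median of the respiratory chain subunits, -1.26, was lower than that of any of these lists, and mitochondrial gene expression came nearest to it. On mean reads per cluster that order turned, with -0.44 for the subunits and -0.48 for mitochondrial gene expression.

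Among 108 genes of the respiratory complexes and their assembly that match the naming rule, 19 had no row under these symbols in either table used here. They were NDUFA3, NDUFA6, NDUFA13, NDUFB11, NDUFAF8 and NDUFA4L2, SDHAF3 and SDHAF4, UQCRHL, COX7B, ATP5D, ATP5L and ATP5L2, and the tissue-restricted isoform genes COX4I2, COX6A2, COX6B2, COX7A1, COX7B2 and COX8C. A symbol without a row had no called cluster under that name in these tables. Other names of these genes were not searched. At which number of reads a cluster was called is not stated in the labels.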

How the data were processed

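PAR-CLIP of Flag/HA-ZC3H7A and Flag/HA-ZC3H7B in HEK293 cells gave 1 table per library with 1 row per gene, and groups were taken from the sample titles. The tools named, per the submitters' processing notes, are STAR 2.5.2a, Bowtie and cutadapt, with hg19 as the build and no roles. For the caller of clusters, tool and settings are not given in the sources used. Counts in the tables are, per the file headers, clusters, reads and distinct reads summed over clusters, and clusters per transcript region, with exon taken to mean coding sequence. The deposited fraction is the T-to-C converted part of the reads.

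Rows naming a class of RNAs and no gene were left out, 282 of 8486 in the ZC3H7A table (1.57% of reads) and 407 of 9566 in the ZC3H7B table (1.51%). The lowest read sum listed was 5 and 4. Ratios, ZC3H7B over ZC3H7A, used genes that both tables list, with a minimum of 20 reads in all, with exact binomial (Clopper-Pearson) 95% intervals, and were tested on simulated data. The simulation drew reads independently, without repeated copies, so it cannot show how the intervals hold for copied reads. Mainly coding or mainly 3′ UTR means over 50% of the clusters of both libraries. With 1 library for each protein, intervals and shares cover counting error only. Alternatives were distinct reads, reads per cluster, clusters, other scalings and minimums. Members, roles and lists were chosen with earlier results of these data known. Full values were given to the 4 members with the most reads of each complex, the 6 highest and 6 lowest ratios among members with at least 100 reads summed, the 5 members with the most reads listed in 1 library alone, and paralogs. Other genes with values were the 2 with the most reads of each list, and CYC1, C14orf2, LRPPRC, CS and IDH3A were named after their values were seen. The values of 1 member are not reported here on their own, though it counts in the sums and medians. RefSeq names (GRCh38.p14) matched 88 of 89 symbols. Python 3.11.15, scipy 1.17.1, numpy 2.4.6, matplotlib 3.10.9 and pandas 2.3.3 were used, and edgeR 4.0.16 in R 4.3.3 for TMM factors.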

Additional observations from a re-analysis of the deposited data

How the results depend on the processing

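The median ratio of the members, -1.09, stayed below 0 under every alternative, from -1.49 with genes missing from a table kept at 0 reads to -0.41 with averaged reads per cluster. With numbers of clusters, the value of -0.93 is that of a gene with equal counts in both libraries. The 31 members higher for ZC3H7A became 17 with distinct reads, 9 when reads per cluster were averaged and 0 with numbers of clusters. The 3 higher for ZC3H7B became 0 with distinct reads, 1 with averaged reads per cluster, 0 with numbers of clusters, 5 with missing genes kept at 0 reads and 0 with subunits only. The median of the subunits, -1.26, was -0.44 with averaged reads per cluster. For the assembly factors the median, 0.33, turned to -0.22 with numbers of clusters and to -0.075 with missing genes kept at 0 reads, so its side of the median gene depends on the quantity. The coding share for ZC3H7B, 39.8%, was 46.4% with subunits only. Of the 69 members, 3 changed side of the median gene with distinct reads (NDUFA4, NDUFA5 and NDUFB3), 14 with averaged reads per cluster and 11 with numbers of clusters. Among those higher for ZC3H7A on reads, these were NDUFB9 (0.40) and UQCR10 (0.081) with averaged reads per cluster, and UQCRB (0.074) with numbers of clusters. The cause of these changes was not tested, except that numbers of clusters are small counts with wide intervals. Scaling to all cluster reads moved the median of all genes by 0.16, and the members then had 29 and 3 passing. The alternatives for subunits, assembly factors and single members were chosen after seeing the data. Depth limits members with few distinct reads, such as NDUFC1 with 4 and 6. No paired analysis was possible because each protein had 1 library.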

Other observations

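The 6 names left out by the hyphen and pseudogene rule held 492 reads for ZC3H7A and 163 for ZC3H7B. NDUFC2-KCTD14 had 175 and 29 reads, COX7A2P2 had 124 reads and no row for ZC3H7B, and ATP5F1P3 had 91 and 24. ATP5J2-PTCD1 had 51 and 49 reads, NDUFV2P1 had 30 and 48, and COX10-AS1, which is antisense to COX10, had 21 and 13. These genes overlap or resemble members, and reads of such copies are uncertain between the names.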
